A study of Homo sapiens with 7 samples.

Results

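The contacts described here joined a distal regulatory region to the promoter of a gene that was not its nearest gene. They come from H3K27ac HiChIP, which ligates DNA ends that lie together in the nucleus and enriches for DNA carrying acetylated lysine 27 of histone H3, a mark of active promoters and enhancers. A promoter was a window of 500 bp centred on each annotated start site of the 20163 protein-coding genes of GENCODE on GRCh37 (hg19). A promoter-distal pair had exactly 1 anchor over a promoter. It skipped the nearest gene when none of the genes at its promoter anchor was the gene whose start site lay nearest to the midpoint of the promoter-free anchor. Such a nearest gene is called skipped or passed over, and another gene joined past it, on whichever side of the anchor it lay. Of 120632 promoter-distal pairs in 3 lists, 70294 were skipping pairs, out of 354783 pairs of different anchors on 1 chromosome. There were 20719 skipping pairs of 44099 promoter-distal pairs in Ishikawa, 10669 of 16626 in T-47D and 38906 of 59907 in LNCaP.

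The 3 lists are of human cancer lines. Ishikawa, with 4 samples, comes from an endometrial adenocarcinoma, T-47D, with 1, from a ductal carcinoma of the breast, and LNCaP, with 2, from a prostate carcinoma. The Ishikawa samples were given DMSO (2 samples) or 10 nM 17β-estradiol (2 samples) for 1 h, and the labels name no treatment for T-47D and LNCaP. Chromatin was cut with DpnII in Ishikawa and with MboI in T-47D and LNCaP, both at GATC. Samples of a line were pooled in 1 list of anchor pairs, so DMSO was not compared with estradiol, no value has a replicate error, and enzyme, depth and cell line cannot be told apart between Ishikawa and the other lines. The lists held 1040329 read pairs in the Ishikawa list, 351260 in T-47D and 1805322 in LNCaP, and the least supported pair had 3. Ranges in parentheses after a share are Wilson intervals at 95% and hold no more than the error of counting. Of 9 genes chosen as markers of the lines, 8 had the most read pairs at their promoter in the list of their own line. The exception was TFF1, chosen for T-47D, which had 58 read pairs in LNCaP and 0 in the other lists.

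Enhancers are stretches of DNA that raise the transcription of a gene from a distance, and contact between the enhancer and the promoter is thought to bring the bound factors to the gene. An enhancer often lies inside, or next to, a gene that it does not regulate, so that the linear order of genes is a poor guide to its target. Known cases include enhancers within introns of a broadly expressed host gene that act on a developmental regulator elsewhere in the same domain. Many promoters with high CpG density are active across tissues, whereas promoters poor in CpG are more often tissue-restricted.

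The promoter-free anchors of 4 skipping pairs, 2 of them found in all 3 lists, are shown first as 200 bases of GRCh37, plus strand, with matches to the searched motifs in capitals. The motifs were AP-1 (TGANTCA), forkhead (TGTTTAC), the palindromic estrogen response element (GGTCA and its reverse complement, 3 bases apart) and the CTCF core consensus, each searched on both strands. The anchor that joined TGFA past ADD2 in T-47D (chr2:70841829-70845049, inside an intron of ADD2) held 1 estrogen response element, 2 AP-1 matches and 1 CTCF match. The anchor that joined FOXA1 past MIPOL1 in T-47D (chr14:37713564-37718620, inside an intron of MIPOL1) held 3 forkhead matches. The stretch common to the anchors that joined BCL9L past CXCR5 in all lists held 1 forkhead match, and the one that joined IRF2BPL past LRRC74A held 2 matches, to AP-1 and forkhead. A match is only these letters in the reference and does not show that a factor was bound.
TGFA distal (chr2:70843456-70843655, estrogen response element in capitals): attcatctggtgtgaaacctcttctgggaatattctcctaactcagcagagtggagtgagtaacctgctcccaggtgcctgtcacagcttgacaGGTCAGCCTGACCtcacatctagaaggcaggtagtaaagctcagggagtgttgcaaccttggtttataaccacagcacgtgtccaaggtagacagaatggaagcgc
FOXA1 distal (chr14:37715861-37716060, forkhead in capitals): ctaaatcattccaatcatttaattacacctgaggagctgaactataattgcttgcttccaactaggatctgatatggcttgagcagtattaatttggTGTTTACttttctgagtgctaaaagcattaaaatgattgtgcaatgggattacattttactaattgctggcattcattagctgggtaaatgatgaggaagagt
BCL9L distal (chr11:118740470-118740669, forkhead in capitals): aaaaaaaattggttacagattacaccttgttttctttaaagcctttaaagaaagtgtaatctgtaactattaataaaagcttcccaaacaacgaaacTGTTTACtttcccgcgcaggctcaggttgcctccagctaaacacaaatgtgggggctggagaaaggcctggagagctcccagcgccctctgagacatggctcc
IRF2BPL distal (chr14:77385216-77385415, AP-1 in capitals): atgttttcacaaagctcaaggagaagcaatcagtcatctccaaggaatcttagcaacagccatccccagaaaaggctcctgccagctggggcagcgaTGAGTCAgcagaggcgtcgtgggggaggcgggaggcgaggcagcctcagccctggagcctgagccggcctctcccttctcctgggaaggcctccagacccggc

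The 250 bases before the start site are shown for the joined and the skipped gene of 1 LNCaP pair whose skipped promoter had no anchor, on the strand of each gene and with CpG in capitals. UQCC2, an assembly factor of mitochondrial complex III, was joined past IP6K3, an inositol hexakisphosphate kinase. The joined gene had 21 CpG in these bases and the skipped gene 4. Over the 500 bp promoter window, CpG observed over expected was 0.903 for UQCC2 and 0.222 for IP6K3.
UQCC2, joined (chr6:33679505-33679754, minus strand): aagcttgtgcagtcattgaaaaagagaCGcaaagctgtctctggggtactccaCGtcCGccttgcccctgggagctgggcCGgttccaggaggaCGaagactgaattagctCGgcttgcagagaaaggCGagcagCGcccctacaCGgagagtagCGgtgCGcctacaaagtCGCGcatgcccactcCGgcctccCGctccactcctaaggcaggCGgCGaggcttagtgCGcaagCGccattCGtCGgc
IP6K3, skipped (chr6:33714683-33714932, minus strand): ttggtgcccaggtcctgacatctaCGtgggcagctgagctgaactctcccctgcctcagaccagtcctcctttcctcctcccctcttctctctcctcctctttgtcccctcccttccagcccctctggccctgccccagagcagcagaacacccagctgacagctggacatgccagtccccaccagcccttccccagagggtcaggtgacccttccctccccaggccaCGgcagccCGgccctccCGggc

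Skipping was common in every list. Skipping pairs made up 46.98% of promoter-distal pairs in the Ishikawa list (46.5% to 47.4%), 64.2% in T-47D (63.4% to 64.9%) and 64.9% in LNCaP (64.6% to 65.3%). The share was lower when counted in read pairs, at 37.8%, 49.6% and 44.6%. It differed widely between chromosomes, from 32.1% on chromosome 4 to 61.0% on chromosome 19 in Ishikawa, from 43.6% on chromosome 13 to 77.6% on chromosome 19 in T-47D, and from 52.7% on chromosome 13 to 80.3% on chromosome 19 in LNCaP. Chromosome 19, the most gene-dense human chromosome, thus had the highest share in each list among chromosomes with 100 promoter-distal pairs or more. The Ishikawa list is 4 sorted blocks of rows one after another, called parts here, with no sample named for any, and the share within a part was 40.1%, 37.3%, 44.4% and 41.5%. The share fell when more read pairs were required: with 10 or more, 28.3% of the promoter-distal pairs skipped in the Ishikawa list, 39.7% in T-47D and 44.2% in LNCaP.

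The rule itself makes skipping pairs longer, because a start site other than the nearest is farther away. The median span between anchor midpoints was 94.0 kb for skipping pairs and 23.3 kb for pairs that joined the nearest gene in Ishikawa. The T-47D medians were 136 and 30.1 kb, and the LNCaP medians 182 and 37.0 kb. At 5 to 9.10 kb, 6.503% of the Ishikawa pairs, 8.92% of the T-47D pairs and 6.23% of the LNCaP pairs skipped. At 100 to 182 kb, the shares were 74.96%, 80.1% and 77.6%. At a given span the 3 lists thus lay closer together than over all spans, and a larger share of the LNCaP and T-47D pairs was long. T-47D still lay above the other lists in each bin up to 603 kb, and below them in the longer bins. At 16.6 to 30.2 kb its share was 34.8%, against 26.7% in Ishikawa and 26.1% in LNCaP.

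**Figure D1:**
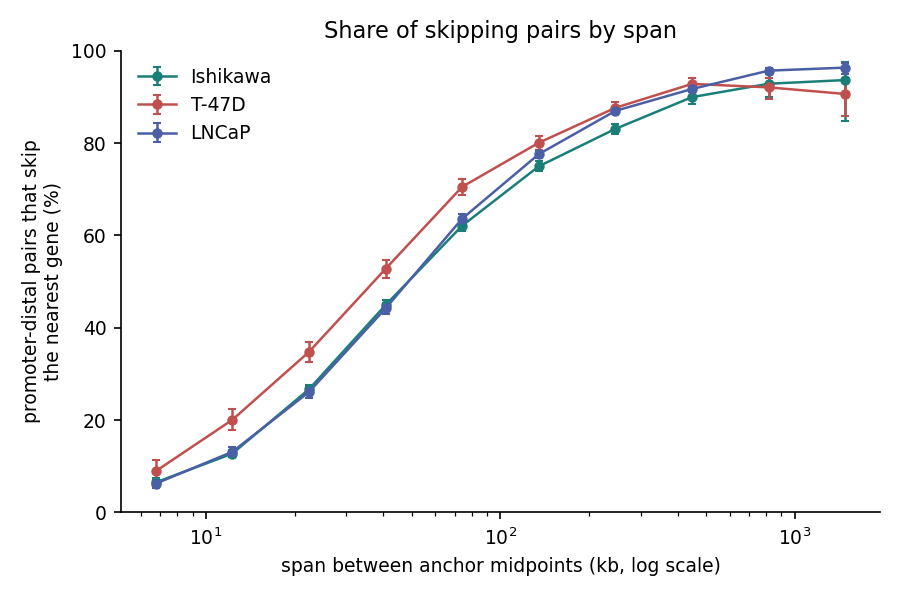
Percent of promoter-distal pairs that skipped the nearest gene (vertical axis) against the span between anchor midpoints in kb (horizontal axis, log scale) in 10 bins from 5 kb to 2 Mb, with 1 line per cell line and bars for 95% Wilson intervals. The share rose with span in all lists, from 6.503%, 8.92% and 6.23% in the shortest bin to 93.7%, 90.6% and 96.3% in the longest for Ishikawa, T-47D and LNCaP.

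Skipped start sites lay close to the promoter-free anchors, many of which also joined the skipped gene in another pair, as given below. In the order Ishikawa, T-47D and LNCaP, which is kept below, the median distance from the anchor midpoint to the nearest start site was 12.3, 11.1 and 13.5 kb, and the joined start site lay at a median of 93.1, 136 and 182 kb. Where the nearest gene had a promoter anchor but no pair with the region, its start site was farther, at medians of 19.2, 19.5 and 18.7 kb. In 34.1%, 31.7% and 27.95% of skipping pairs the nearest start site was within 5 kb of the edge of the anchor. That start site was on the side of the joined promoter in 42.0%, 45.4% and 46.5% of pairs, so it more often lay on the other side of the anchor. At least 1 start site of another gene lay between the anchor and the joined start site in 73.5%, 81.9% and 85.2%.

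Often more than 1 gene started closer to the anchor than the joined gene, counted on both sides of the anchor. The joined gene was the second nearest in 31.2% of the Ishikawa skipping pairs, 21.0% of the T-47D pairs and 19.4% of the LNCaP pairs. It had 10 or more closer genes in 9.09%, 20.5% and 20.1%. The median number of closer genes was 3, 4 and 4, and the median number with a start between the anchor and the joined start site was 1, 2 and 2. Skipping pairs also lay in more gene-rich surroundings, with a median of 14, 16 and 12 genes starting within 500 kb of the promoter-free anchor, against 9, 8 and 8 for pairs that joined the nearest gene. The margin was small for few pairs: the joined start site was within 10 kb of being the nearest in 8.18%, 4.38% and 2.79% of skipping pairs.

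The anchors lay in the skipped gene far more often than in the joined gene. The anchor midpoint fell inside the nearest gene in 43.6% of skipping pairs in the Ishikawa list, 39.8% in T-47D and 52.0% in LNCaP. That gene was not joined by the pair itself, but the same anchor could join it in another pair. It fell inside the joined gene in 4.35%, 1.94% and 2.60%, and between genes in 46.9%, 53.6% and 40.4%. Among pairs that joined the nearest gene, the midpoint was inside the joined gene in 63.1%, 54.1% and 66.8%. Part of this contrast follows from the rule, since an anchor inside a gene is usually close to that gene's start site.

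Many skipped promoters were in contact themselves. In 50.3% of skipping pairs in the Ishikawa list, 55.0% in T-47D and 65.6% in LNCaP, the same promoter-free anchor also joined its nearest gene in another pair of the list. With 1 start site per gene this share was 34.8%, 42.2% and 54.8%, and with at least 10 read pairs 38.6%, 38.1% and 55.5%. In a further 21.6%, 12.6% and 13.2% the nearest gene had an anchor over its promoter but no pair with this region. In the remaining 28.1% (27.5% to 28.7%), 32.4% (31.5% to 33.3%) and 21.2% (20.7% to 21.6%) no anchor of the list lay over any promoter of the nearest gene, so a contact with that gene could not be listed. This last share depended on how promoters were set: with 1 start site per gene it was 47.4%, 50.4% and 34.0%. It was also higher, at 44.1%, 47.9% and 27.2% of skipping pairs, when at least 10 read pairs were required of every pair in a list.

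Seen from the promoter-free anchors, 26107 in the Ishikawa list, 7742 in T-47D and 22378 in LNCaP, the lists differed. Anchors that joined only their nearest gene were 50.4% of the anchors in the Ishikawa list, 34.0% in T-47D and 29.0% in LNCaP. Anchors that joined the nearest and another gene were 22.3%, 32.7% and 41.7%, and anchors that joined only other genes were 27.3%, 33.3% and 29.4%. Among anchors of the mixed kind, the pair with the most read pairs was one with the nearest gene in 63.2%, 67.7% and 66.3%, and a skipping pair in 22.2%, 23.5% and 26.8%. A single anchor took part in up to 19 skipping pairs in the Ishikawa list, 23 in T-47D and 41 in LNCaP.

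**Figure D2:**
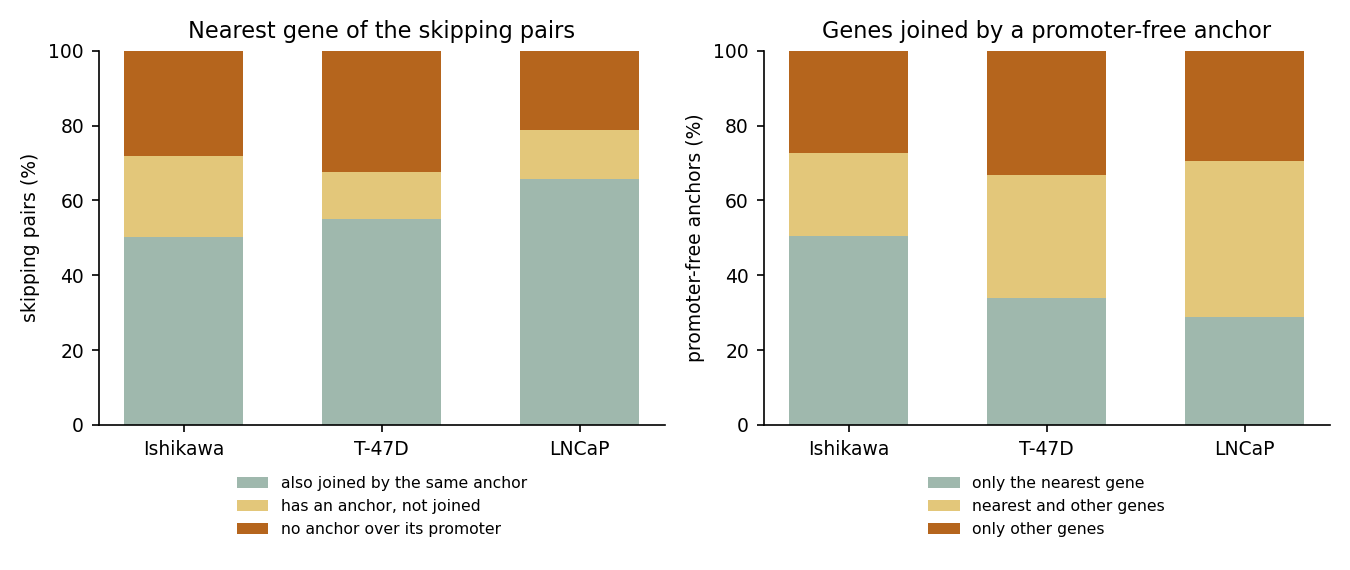
Left, the nearest gene of the skipping pairs in each list (percent of skipping pairs), split by whether the same promoter-free anchor also joined it, whether it had an anchor over its promoter without being joined, or whether it had no anchor. Right, promoter-free anchors in each list (percent of anchors) that joined only the nearest gene, the nearest and other genes, or only other genes. The nearest gene was also joined in 50.3%, 55.0% and 65.6% of skipping pairs, and anchors that joined only the nearest gene fell from 50.4% in Ishikawa to 29.0% in LNCaP.

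Skipping pairs carried fewer read pairs than other promoter-distal pairs. Their median was 3 read pairs in the Ishikawa list, 4 in T-47D and 5 in LNCaP, against 5, 6 and 8 for pairs that joined the nearest gene. Pairs at the minimum of 3 were 54.8%, 38.2% and 31.9% of skipping pairs and 34.4%, 19.8% and 15.3% of the others. Read pairs fall with span, so both kinds were compared within bins of span, weighted by the skipping pairs of each bin. The mean log2 number of read pairs of skipping pairs was then lower by -0.06 in the Ishikawa list (2.13 against 2.19), -0.26 in T-47D (2.28 against 2.54) and -0.47 in LNCaP (2.48 against 2.95). As ratios of geometric means these were 0.961, 0.837 and 0.720. No test across samples was possible, and chromosomes are given as a description only: the difference was negative on 18 of 22 chromosomes in Ishikawa, 21 of 23 in T-47D and 23 of 23 in LNCaP. The Ishikawa difference was between -0.05 and -0.02 within the 4 parts of the list, and with at least 5 read pairs per pair it was 0.0003, so it was not detectable there.

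The gap was wider at long spans in T-47D and LNCaP. In LNCaP the difference in mean log2 read pairs was -0.06 at 5 to 9.10 kb, -0.29 at 54.9 to 100 kb, -0.77 at 603 to 1099 kb and -0.62 at 1099 to 2000 kb. In T-47D it was 0.00 in the first of these bins (-0.0047) and -0.10 in the second. It was then -0.38 at 100 to 182 kb, -0.39 at 182 to 331 kb and -0.22 at 331 to 603 kb, so it did not widen steadily. At 603 to 1099 kb it was -0.58, in a bin with 43 pairs that joined the nearest gene. In Ishikawa it stayed between -0.09 and 0.13 over the 9 bins with at least 20 pairs of each kind. In all lists, skipping pairs at 182 to 331 kb had a median of 3 or 4 read pairs.

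**Figure D3:**
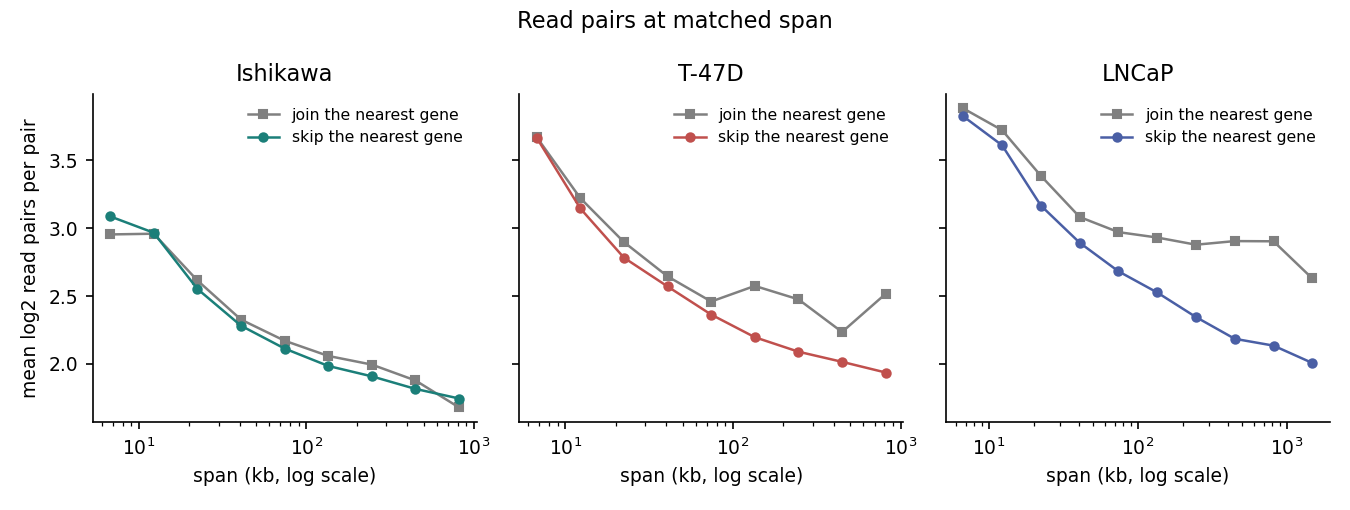
Mean log2 read pairs per pair (vertical axis) against span in kb (horizontal axis, log scale) for pairs that skipped the nearest gene (coloured circles) and pairs that joined it (grey squares), 1 panel per list, in bins with at least 20 pairs of each kind. Both curves nearly coincided in Ishikawa, with a span-matched difference of -0.06, and lay farther apart at long than at short spans in T-47D (-0.26) and LNCaP (-0.47).

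Support across the parts of the Ishikawa list was lower for skipping pairs. Of these, 25.8% occurred in 2 or more of the 4 parts and 2.74% in all 4, against 45.4% and 6.64% of the pairs that joined the nearest gene. Skipping pairs are longer and weaker, and the part of span and read pairs in this gap was not tested.

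Skipping pairs were also looked for in the lists of the other cell lines. A pair counted as found when both anchors overlapped the anchors of 1 pair of the other list. Of the T-47D skipping pairs, 31.3% were found in LNCaP, against a background of 31.7% of all T-47D promoter-distal pairs, and at matched span the shares were 32.1% for skipping pairs and 27.4% for pairs that joined the nearest gene. Of the T-47D skipping pairs, 7.36% were found in Ishikawa (background 9.67%). Of the LNCaP skipping pairs, 7.12% were found in T-47D (background 7.69%) and 4.42% in Ishikawa (background 6.74%). Of the Ishikawa skipping pairs, 2.71% were found in T-47D (background 2.91%) and 6.89% in LNCaP (background 7.84%). At matched span the LNCaP shares in T-47D were 7.12% for skipping pairs and 6.003% for the others. The other 4 matched comparisons were lower for skipping pairs: 7.53% against 8.59% for T-47D in Ishikawa, 4.42% against 5.02% for LNCaP in Ishikawa, 6.93% against 7.30% for Ishikawa in LNCaP, and 2.72% against 2.74% for Ishikawa in T-47D. The direction thus depended on the lists compared. These shares depend on the length of both lists and on anchor width, which was a median of 5.44 kb for the promoter-free anchors of skipping pairs in Ishikawa, with 2.51 and 3.68 kb for the T-47D and LNCaP lists. They also moved with the rule: of the T-47D skipping pairs, 12.01% were found in LNCaP when the overlap had to cover 50% of both anchors, and 47.66% when both lists were limited to pairs with at least 10 read pairs. With the 50% overlap nearly all matches that involved Ishikawa were lost: 0.0965% of its skipping pairs were then found in T-47D and 0.758% in LNCaP, and 0.197% of the T-47D and 0.434% of the LNCaP skipping pairs were found in Ishikawa. LNCaP pairs in T-47D fell to 3.15%. Under the looser rule, 241 Ishikawa skipping pairs (1.16%) were found in both other lists, against 1.36% of the pairs that joined the nearest gene.

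Pairs were then grouped by gene, a coarser unit than an anchor, which by itself raises the overlap. No such share was computed for pairs that joined the nearest gene. A combination of a joined and a skipped gene occurred 15688 times in Ishikawa, 9950 times in T-47D and 28480 times in LNCaP, counting each combination once per list. T-47D and LNCaP shared 4579 combinations, 46.0% of those in T-47D and 16.1% of those in LNCaP. In all 3 lists there were 1022 combinations, 6.51% of the Ishikawa, 10.3% of the T-47D and 3.59% of the LNCaP combinations. The combinations named next were chosen after their values were seen, among those with the most read pairs in their weakest list.

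The strongest of these led past COX4I2, a subunit of cytochrome c oxidase, to BCL2L1, an inhibitor of apoptosis, with 65, 81 and 186 read pairs. BCL9L, a coactivator of beta-catenin, was joined past CXCR5, a chemokine receptor of B cells, with 47, 33 and 37 read pairs, of which 12, 20 and 37 came from anchors over the region shown above. IRF2BPL, a ubiquitin ligase of the nucleus, was joined past LRRC74A with 67, 28 and 302, of which 50, 14 and 236 came from the region shown. CCND1, the cyclin of early cell cycle progression, was joined past MYEOV with 22, 76 and 24, and RPLP0, a ribosomal protein, past PXN, the focal adhesion protein paxillin, with 29, 28 and 44. ERBB2, a receptor tyrosine kinase, was joined past its neighbour GRB7, a signalling adaptor, with 16, 25 and 23. Read pairs were not scaled for depth, so these values do not rank the lines.

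**Figure D4:**
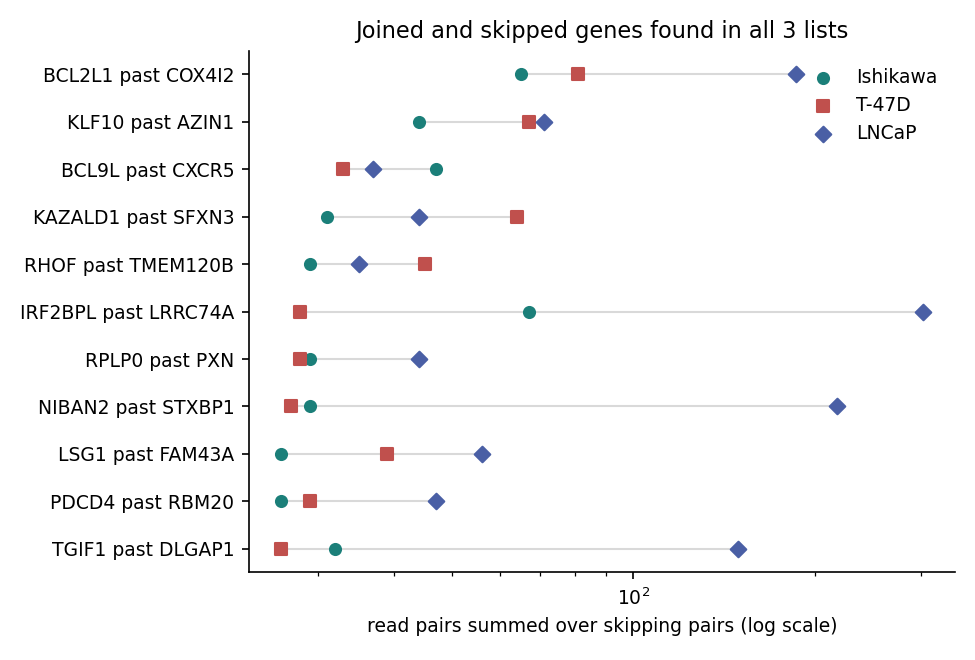
Read pairs summed over skipping pairs (horizontal axis, log scale) for 11 combinations of a joined and a skipped gene with many read pairs in their weakest list, with 1 symbol per cell line. The weakest list had 65 read pairs for BCL2L1 past COX4I2 and 26 for TGIF1 past DLGAP1, and LNCaP reached 302 for IRF2BPL past LRRC74A.

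Some genes were passed over in every line. Of 1372 genes skipped in all 3 lists, 147 had no anchor over their promoter in any of them. Each list alone skipped 7280, 3501 and 7325 of the 20163 protein-coding genes, and 32.5%, 35.4% and 29.2% of these had no anchor there. The share of all protein-coding genes without an anchor in any list is not given here, so 147 is a count only. COX4I2 was passed over with 92, 115 and 228 read pairs, and CXCR5 with 63, 51 and 41. FOXL2, a transcription factor of the ovary, was passed over with 27, 65 and 189, and PLA2G1B, a phospholipase secreted by the pancreas, with 87, 25 and 59. DNTT, the terminal transferase of lymphocyte development, had 15, 14 and 11. These genes were named after their values were seen and not by rank. Other genes of this kind had more read pairs in their weakest list than most of them, among them SYNC (39, 41 and 117) and LRRC74A (86, 35 and 364). A function common to the skipped genes was not tested.

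Promoters of skipped genes without an anchor were poorer in CpG. In this comparison a promoter was called CpG-rich when CpG observed over expected, the number of CpG relative to that given by the C and G content, was at least 0.6 in the 500 bp window. Of the skipped genes without an anchor over the promoter, 51.5% were CpG-rich in the Ishikawa list (2366 genes), 43.4% in T-47D (1239 genes) and 40.6% in LNCaP (2142 genes). Of the skipped genes with an anchor, 68.4%, 77.1% and 77.8% were CpG-rich, close to the 66.6%, 79.1% and 79.1% of genes joined by a skipping pair. The share over all protein-coding genes was 60.7%. The sequences of IP6K3 and UQCC2 above are 1 example, with start sites almost equally far from the anchor, and other pairs need not show such a contrast. CDK19, skipped in LNCaP with an anchor over its promoter, was at 0.551, below the threshold, and AMD1, joined past it, at 0.930. The anchors of H3K27ac HiChIP are themselves drawn to active chromatin, and the part of that selection in the difference was not tested.

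Among the motifs searched in the promoter-free anchors was that of CTCF, a factor that binds at the base of many chromatin loops. In T-47D the CTCF core consensus was found in the central 1 kb of 1.63% of anchors that joined only the nearest gene (1.21% to 2.19%), 2.73% of anchors that joined the nearest and other genes, and 3.57% of anchors that joined only other genes (2.92% to 4.36%). In LNCaP these shares were 0.849%, 1.12% and 1.73%, and over all promoter-free anchors 2.63% in T-47D and 1.22% in LNCaP. In Ishikawa they were 0.357%, 0.515% and 0.421%, with intervals that overlapped. GC content differed too, and was highest in anchors that joined the nearest and other genes, with medians of 43.9%, 48.5% and 47.8% in T-47D and 39.5%, 41.8% and 41.6% in LNCaP, and its part in the CTCF shares was not tested. AP-1 was found in 26.6% of Ishikawa anchors that joined only other genes and 28.2% of those that joined only the nearest, in 27.7% and 30.4% in T-47D, and in 32.0% and 32.2% in LNCaP. Forkhead shares were 13.0% and 13.9%, 15.8% and 18.4%, and 25.3% and 26.7% in the same order. Anchors that joined the nearest and other genes held AP-1 in 26.4%, 27.3% and 30.8%, and forkhead in 12.5%, 17.4% and 23.9%. In LNCaP this last share (23.01% to 24.7%) lay below that of anchors that joined only the nearest gene (25.6% to 27.8%). The estrogen response element was too rare to compare, in 38 anchors of Ishikawa, 31 of T-47D and 21 of LNCaP.

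**Figure D5:**
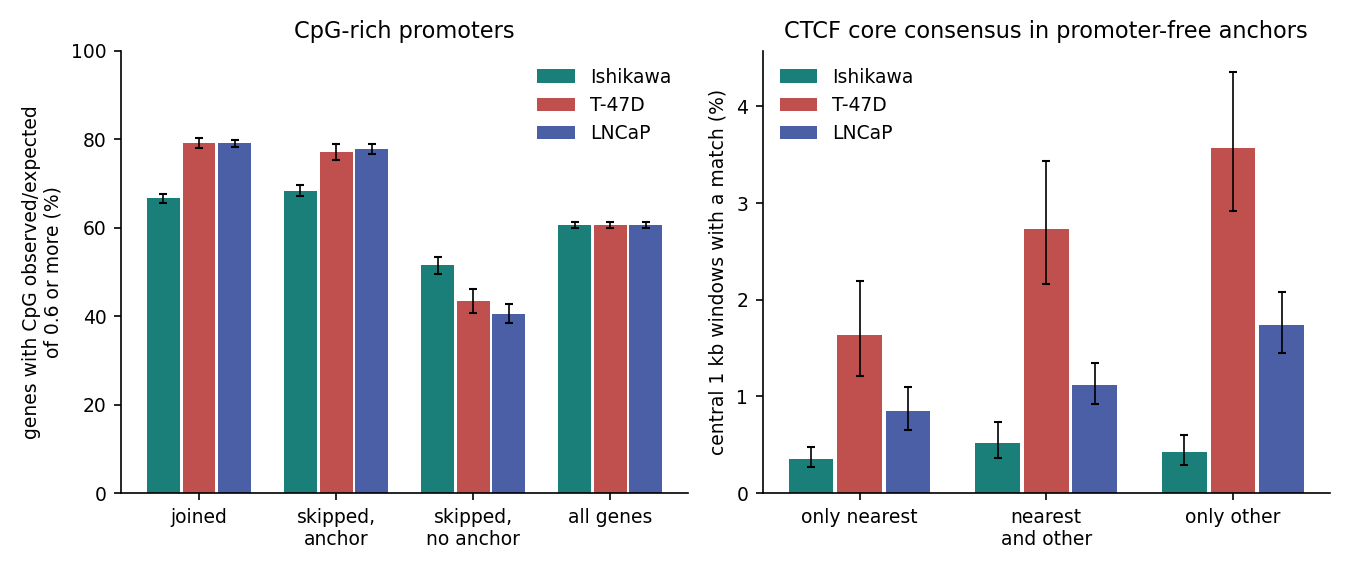
Left, percent of genes with a CpG-rich promoter (observed over expected of at least 0.6) among genes joined by a skipping pair, skipped genes with an anchor over the promoter, skipped genes without one, and all protein-coding genes. Right, percent of promoter-free anchors whose central 1 kb held the CTCF core consensus, by the genes they joined. Bars are coloured by cell line with 95% Wilson intervals, and skipped genes without an anchor were CpG-rich in 51.5%, 43.4% and 40.6% against 60.7% of all genes.

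Most genes with any linked distal anchor had one that was nearest to another gene. These were 71.8% of 10577 linked genes in Ishikawa, 79.8% of 6989 in T-47D and 89.3% of 10564 in LNCaP. Genes linked only through such anchors were 23.9%, 52.8% and 39.8%. The median share of a gene's linked anchors that lay nearest to another gene was 50% in the Ishikawa list, 100% in T-47D and 80% in LNCaP.

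In Ishikawa the genes joined by the most skipping anchors were BMAL2 (39 of 41 linked anchors), a partner of CLOCK in the circadian clock, FBXL14 (35 of 36), an F-box protein of ubiquitin ligases, and MSRB3 (35 of 52), a methionine sulfoxide reductase. XXYLT1, a xylosyltransferase that acts on Notch, and TMEM44 had 33 each. The most skipped genes were ERC1, a scaffold protein, with 20 anchors, HMGA2, an architectural chromatin protein, TP63, the p53 relative of stratified epithelia, and ADK, adenosine kinase, with 16 each, and TMEM117 with 15. ERC1 was passed over for FBXL14 by 19 of its anchors (189 read pairs), HMGA2 for MSRB3 by 16 (181 read pairs) and TP63 for TPRG1, its neighbour, by 16 (81 read pairs). All of these lay on chromosomes 3, 10 and 12, which held 34.6% of the Ishikawa skipping pairs, 15.4% of the T-47D and 14.8% of the LNCaP skipping pairs. The same chromosomes held 28.6%, 19.0% and 17.1% of the pairs that joined the nearest gene. Without these chromosomes the Ishikawa share of skipping pairs was 44.8%.

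In T-47D the leading joined genes were EMC8 (22 of 24 linked anchors), a subunit of the membrane protein insertion complex of the endoplasmic reticulum, TYRP1 (21 of 25), a melanosomal enzyme, and GINS2 (19 of 19), part of the replicative helicase. HES1, a repressor downstream of Notch, had 17 of 26, and RARA, the retinoic acid receptor alpha, 16 of 18. GSE1, which lies beside EMC8 and GINS2 on chromosome 16, was the most skipped gene with 20 anchors and 407 read pairs, and it was passed over for EMC8 by 18 anchors, for GINS2 by 14 and for 17 genes in all. RAD51B, a recombination protein, was skipped by 15 anchors and ANKRD55 by 12, and neither had an anchor over its promoter. RAD51B was passed over for ZFP36L1, which speeds the decay of AU-rich messenger RNA, by 15 anchors with 146 read pairs, and ANKRD55 for MAP3K1, a kinase of stress signalling, by 10 with 106. TRPC6, a cation channel, and MPDZ, a scaffold with PDZ domains, were skipped by 12 anchors each. All 12 of those nearest to TRPC6 joined PGR, the progesterone receptor, with 428 read pairs, and 11 of those nearest to MPDZ joined TYRP1 with 229.

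In LNCaP the leading joined genes were CCNG2, cyclin G2 (41 of 41 linked anchors), PBOV1 (39 of 45), MYC (37 of 72), MIA3, which exports collagen from the endoplasmic reticulum (37 of 39), and EHF, an ETS factor of epithelia (37 of 44). NRP1, a coreceptor of vascular growth factors and semaphorins, also had 37. The skipping part of their read pairs was 433 of 2256 for EHF and 373 of 964 for NRP1. It was 661 of 661 for CCNG2, 1392 of 2463 for PBOV1, 1440 of 2160 for MYC and 805 of 1120 for MIA3. POU5F1B, a retrogene upstream of MYC, was the most skipped gene, with 33 anchors and 1367 read pairs, of which 1332 joined MYC. PARD3, a cell polarity protein, was also skipped by 33 anchors, LPP, a LIM domain protein, by 30, FGGY, a carbohydrate kinase, by 26 and MED13L, of the Mediator kinase module, by 25. All 5 had anchors over their own promoters. PARD3 was passed over for NRP1 by 32 anchors (354 read pairs), LPP for BCL6, a transcriptional repressor, by 30 (453 read pairs) and FGGY for JUN, a subunit of AP-1, by 26 (160 read pairs). MED13L was passed over for TBX3, a T-box repressor, by 23 anchors with 1407 read pairs.

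The strongest single skipping pair in T-47D joined the region in the MIPOL1 intron shown above to FOXA1, the pioneer factor of estrogen and androgen receptor binding, over 344 kb with 201 read pairs. MIPOL1 was also joined by the same anchor. In all, 9 skipping pairs with 528 read pairs led from MIPOL1 to FOXA1 in T-47D, and 0 in Ishikawa and LNCaP. In LNCaP a pair with 730 read pairs overlapped both anchors, but its promoter anchor was 49.6 kb wide and covered a start site of MIPOL1 as well as FOXA1 and TTC6, so that it counted as joining its nearest gene. The T-47D promoter anchor was 18.7 kb wide. In HOXC, an anchor of T-47D joined HOXC11 with 191 read pairs and HOXC6 with 183. Its midpoint lay 3.04 kb from the start of HOXC10, which had no anchor over its promoter window of 500 bp. The edge of the anchor lay nearer, close enough to overlap a promoter window of 2 kb. With that window these would not be skipping pairs.

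In LNCaP an anchor inside CDK19, a kinase of the Mediator complex, joined AMD1, which makes decarboxylated S-adenosylmethionine for polyamine synthesis, with 1780 read pairs over 225 kb, and also joined CDK19. A second region, nearest to the transporter gene SLC22A16, joined AMD1 with 514 read pairs, and SLC22A16 had no anchor. SLC45A3, an androgen-induced prostate gene, was joined past NUCKS1 with 1379 read pairs over 37.8 kb. MCCC2, an enzyme of leucine breakdown, was joined past CARTPT, a neuropeptide gene, with 1013 read pairs over 99.2 kb. UQCC2 was joined past IP6K3 with 243 read pairs, but with start sites at 17.9 and 17.2 kb the margin was under 1 kb.

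In Ishikawa the strongest skipping pairs were those of NBPF1 with 192 and 130 read pairs, whose nearest genes AL021920.2 and AL355149.2 had no anchor. NBPF1 belongs to a recently duplicated gene family, and reads from such copies can be placed wrongly. KCNJ5, a potassium channel, was joined past TP53AIP1 with 87 read pairs, and TP53AIP1 was joined by the same anchor.

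Among the longest skipping pairs with at least 10 read pairs, those of NBPF1 and ZNF595 spanned most of a chromosome. NBPF1 was joined to a region near IRF2BP2 over 217986 kb in Ishikawa with 28 read pairs. ZNF595, a zinc finger gene, was joined to a region near DUX4, a homeobox gene in a repeat array at the other end of chromosome 4, over 190971 kb with 19 read pairs in Ishikawa and over 190977 kb with 28 in T-47D. In T-47D, LRRC37A3, a member of a duplicated family, was joined over 19254 kb with 44 read pairs to an anchor that shared 233 distinct sequences of 50 bases with its promoter anchor, whereas the anchors of the NBPF1 and ZNF595 pairs shared 0. PDE4DIP, a scaffold of the centrosome and Golgi, was joined past NOTCH2, a Notch receptor, over 24498 kb in Ishikawa with 14 read pairs. Exact sequences of 50 bases occurred in both anchors of 5.99% of skipping pairs in the Ishikawa list, 0.384% in T-47D and 1.94% in LNCaP, against 3.50%, 0.302% and 1.19% of the other pairs. Their part in these contacts was not tested. In T-47D, TAF3 was joined over 1382 kb past GATA3, with 10 read pairs. In LNCaP the longest were 1947 and 1937 kb, from a STEAP4 intron to STEAP2 and CFAP69 with 11 read pairs each, and 1899 kb, from near N6AMT1 to ADAMTS1 with 13. The anchors of the 1947 kb pair shared 8 distinct sequences of 50 bases, and those of the 1937 and 1899 kb pairs shared 0.

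Host and target genes known from enhancer studies were then looked up. From FTO, an RNA demethylase gene, to IRX3, a homeobox gene, there were 6 skipping pairs with 42 read pairs in T-47D, 3 with 11 in LNCaP and 0 in Ishikawa. From FTO to IRX5, its homeobox neighbour, T-47D had 3 with 12 read pairs and LNCaP 9 with 50, at distances of 853 to 1215 kb. From within LPP to BCL6 there were 27 with 373 read pairs in LNCaP and 3 with 11 in T-47D. From CCDC170 to ESR1, which encodes estrogen receptor alpha, there were 6 with 29 read pairs in T-47D only. From ELP4 to PAX6, an eye and brain regulator, there was 1 pair with 8 read pairs in Ishikawa only, and from CLEC16A to SOCS1, an inhibitor of cytokine signalling, 1 with 4 in T-47D and 1 with 3 in LNCaP. No list held a skipping pair from LMBR1 to SHH, a secreted signalling protein, or from TTC6 to FOXA1. A pair can be absent in several ways: no loop passed the filters on reads and false discovery rate, an anchor covered the host promoter too, the target was itself the nearest gene, or the target had no promoter anchor. The last held in Ishikawa for IRX3, IRX5, FOXA1 and SOCS1, and in T-47D and LNCaP for SHH and PAX6.

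The study perturbed regions around several genes, TGFA and PEG10 among them. TGFA, a ligand of the epidermal growth factor receptor, was joined past ADD2, a cytoskeletal protein, from the ADD2 intron shown above. In Ishikawa that region (chr2:70836772-70850211) had 13 read pairs with 1 TGFA promoter anchor and 8 with another, and in T-47D 14. ADD2 had an anchor over its promoter in Ishikawa, not joined to this region, and none in T-47D. The joined start site lay 62.2 kb away for the first of these Ishikawa anchors, 151 kb away for the second, and 62.1 kb away in T-47D. The skipped start site lay 57.0 kb away. The first Ishikawa pair and the T-47D pair thus fell within the margin of 10 kb. TGFA was further joined past FAM136A in Ishikawa with 13 read pairs and past C2orf42 in T-47D with 4, and it had no skipping pair in LNCaP. The bases shown above from the ADD2 intron hold the target of a guide RNA that the study listed for an upstream TGFA enhancer. In Ishikawa, the study reported, targeting that enhancer with a repressor was among the manipulations with the largest effects on TGFA response timing. PEG10, an imprinted gene of retroviral origin, had 2 skipping pairs in Ishikawa, each with 3 read pairs.

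Gene lists chosen for these lines differed in the share of their linked anchors that lay nearest to another gene. Among lineage factors, transcription factors that define the lines, the median share of a gene's linked anchors nearest to another gene was 18.2% in the Ishikawa list, 22.2% in T-47D and 54.5% in LNCaP, below the medians of 50%, 100% and 80% over all genes. Of 24 factors, 14 of 19 linked had a skipping anchor in Ishikawa, 10 of 13 in T-47D and 14 of 16 in LNCaP. FOXA1 had 13 skipping anchors of 16 in T-47D and 15 of 40 in LNCaP, and PGR 15 of 21 in T-47D. MECOM, a zinc finger factor, had 6 of 55 in Ishikawa, and TRPS1, a GATA-type repressor, 5 of 36 in T-47D. In LNCaP, HOXB13, the prostate homeobox factor, had 23 of 25, SPDEF, an ETS factor of secretory epithelia, 22 of 25, and GRHL2, a regulator of epithelial identity, 26 of 44. The skipping part of their read pairs was smaller, at 558 of 2676, 222 of 858 and 362 of 3168. For FOXA1 it was 86 of 4130 in LNCaP and 544 of 614 in T-47D, and for PGR 452 of 511 in T-47D. The FOXA1 values of these lines are not directly comparable. In LNCaP a FOXA1 promoter anchor of 49.6 kb also covered a MIPOL1 start site. Its pairs with regions nearest to MIPOL1 therefore counted as joining the nearest gene. The 18.7 kb anchor of the strongest T-47D pair did not cover such a start site.

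For estrogen response genes the median shares were 11.1%, 71.4% and 66.7%, against 50%, 100% and 80% over all genes. A skipping anchor was found for 5 of 10 linked genes in Ishikawa, 12 of 13 in T-47D and 12 of 12 in LNCaP, against 71.8%, 79.8% and 89.3% of all linked genes, so the Ishikawa count was below that of all genes. IGFBP4, which binds insulin-like growth factors, had 11 skipping anchors of 12 in Ishikawa and 10 of 11 in T-47D. CCND1 had 5 of 9 in Ishikawa. In T-47D, RARA had 16 of 18 and STC2, a secreted glycoprotein, 14 of 18. The estrogen and androgen response lists were drawn up from general knowledge with earlier results of these data known. For androgen response genes the medians were 33.3%, 71.7% and 73.6%, below those of all genes in each list. In LNCaP all 20 genes had a skipping anchor, as did 89.3% of all linked genes there. STEAP2, a metalloreductase, had 34 of 38 there, SLC45A3 22 of 23, and FKBP5, a chaperone of steroid receptors, 21 of 30. The skipping part of their read pairs was 523 of 2168, 1711 of 1813 and 329 of 977.

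Cytosolic ribosomal protein genes had medians of 91.7%, 100% and 100%, which in T-47D equals that of all genes. A skipping anchor was found for 37 of 46 linked genes in Ishikawa, 45 of 48 in T-47D and 73 of 74 in LNCaP. RPLP0 had only skipping anchors, 4 in Ishikawa and 5 in T-47D, and RPL10A had 16 of 16 in LNCaP. The lists also differed in the median number of linked anchors per gene, which in T-47D was 9 for lineage factors, 11 for estrogen response genes and 2 for ribosomal genes, against 2 over all genes. In LNCaP it was 10 for lineage factors, 16 for androgen response genes and 5 for ribosomal genes, against 4.

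Among gene families, olfactory receptors, most of which are silent outside sensory tissue, were passed over in 112 of 414 genes in the Ishikawa list, 12 in T-47D and 50 in LNCaP, and 74, 12 and 44 of these had no anchor. As shares these were 27.1%, 2.90% and 12.1%, below the 36.1%, 17.4% and 36.3% of all protein-coding genes. Histone genes were joined by skipping pairs in 46 of 83 cases in T-47D and 50 in LNCaP, 55.4% and 60.2%, against 27.7% and 46.8% of all genes. In Ishikawa they were below all genes, with 19 of 83, 22.9% against 37.7%. Zinc finger genes of the ZNF series were joined in 158, 169 and 297 of 509 cases, or 31.0%, 33.2% and 58.3%, below all genes in Ishikawa and above them in the other lists. Of 39 HOX genes, the patterning factors of the body axis, 23 were joined by skipping pairs in Ishikawa (59.0%) and 11 in each of the other lines (28.2%), which is above all genes in Ishikawa, near them in T-47D and below them in LNCaP.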

How the data were processed

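H3K27ac HiChIP was measured in 7 samples of 3 cell lines. Reads were aligned to hg19 with HiC-Pro per the submitters' processing notes, and per the study's methods loops were called with hichipper and loops with few reads or a high false discovery rate were removed. Versions are not given in the sources used here. The deposited files, 1 list of anchor pairs per cell line, hold counts of read pairs per pair of anchors, which the authors did not normalise. The lists end at different spans: over 2 Mb, Ishikawa had 53 skipping pairs, T-47D 96 and LNCaP 0.

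Rows of the Ishikawa list with the same anchors were summed. Start sites were those of protein-coding transcripts of GENCODE release 44 mapped to GRCh37. Of the anchors on chromosomes 1 and 20, 100% had an edge at GATC in the reference, which ties the files to that build. Span bins were 10 of equal log width from 5 kb to 2 Mb, and a bin was used with at least 20 pairs of each kind. Read pairs are not independent molecules, and intervals cover counting error only. With 1 list per line, no test across samples was made. Chromosomes, anchors and pairs are not replicates.

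Genes named for each list were the 5 joined by the most skipping anchors, the 5 skipped by the most, and those of the 3 strongest and 3 longest skipping pairs (at least 10 read pairs for the latter), with ties broken by read pairs. Genes perturbed in the study, known pairs of host and target, and up to 4 genes of each gene list with the most skipping anchors were added, and others are said to be named after their values were seen. The members, gene lists and families were chosen with earlier results of these data known. Alternatives varied the read pair minimum, the promoter window, the start sites, the margin, the span and the chromosomes. Results on items withheld from this text are not reported here. The procedures were tested on simulated data. Python 3.11.15, pandas 2.3.3, NumPy 2.4.6, SciPy 1.17.1, pysam 0.24.0, samtools 1.23.1 and matplotlib 3.10.9 were used.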

Additional observations from a re-analysis of the deposited data

Results flagged for a closer look

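The T-47D list alone held pairs between chromosomes, which the comparisons above leave out: 70 pairs with 308 read pairs, against 0 in Ishikawa and LNCaP. In 48 of them, with 197 read pairs, 1 anchor lay over a promoter and the other over none, so a gene nearest to the promoter-free anchor was always skipped. The strongest joined WDR74, a factor of ribosome assembly on chromosome 11, to a region of chromosome 17 nearest to TMEM106A with 11 read pairs. ZNF112, a zinc finger gene on chromosome 19, was joined to a region of chromosome 2 nearest to GPR39, with 8. Whether pairs between chromosomes were removed from the other lists before deposit is not given in the sources used here, and a cause was not tested.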

How the results depend on the processing

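The share of promoter-distal pairs that skipped depended on the read pairs required. In the order Ishikawa, T-47D and LNCaP it was 34.2%, 53.2% and 55.9% with at least 5 read pairs and 28.3%, 39.7% and 44.2% with at least 10. It was 45.97%, 62.99% and 64.2% with a promoter window of 2 kb, 55.3%, 71.8% and 73.1% with 1 start site per gene, and 44.9%, 63.1% and 64.3% with a margin of 10 kb. It was 59.4%, 72.3% and 71.7% for spans of 20 kb to 1 Mb, 45.6%, 62.1% and 62.6% for promoter anchors of 1 gene, and 44.8%, 65.2% and 65.6% without chromosomes 3, 10 and 12. For Ishikawa pairs in 2 or more parts of the list it was 33.5%.

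The share of skipping pairs whose nearest gene had no anchor was 35.9%, 36.6% and 22.1% with at least 5 read pairs, 44.1%, 47.9% and 27.2% with at least 10, 24.1%, 30.5% and 19.8% with the 2 kb window, and 47.4%, 50.4% and 33.95% with 1 start site per gene. In Ishikawa it was 31.9% without chromosomes 3, 10 and 12 and 27.3% for pairs in 2 or more parts.

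The span-matched difference in log2 read pairs stayed negative under all alternatives run in T-47D (-0.27 to -0.18) and LNCaP (-0.49 to -0.32). In Ishikawa it ranged from -0.07 to 0.0003, and changed sign with at least 5 read pairs (0.000303). The cause of these shifts was not tested. Taking the nearer edge of the anchor in place of its midpoint gives the same nearest gene by construction, since both edges lie equally far from the midpoint.

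No paired analysis was possible because the samples of a line are pooled in 1 list, and for the same reason no replicate was left out. Depth limits weak pairs most: a pair with fewer than 3 read pairs is not listed.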
